A study of Drosophila melanogaster with 2 samples.

Results

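The 10 genes described here code for proteins of the basement membrane: the collagen IV chains Col4a1 and vkg, the laminin chains LanA, LanB1 and LanB2, and Ndg, trol, SPARC, Ppn and Pxn. They were taken by name from a table of 17039 genes, and all 10 were found under their exact symbols. RNA was counted in nuclei of Drosophila melanogaster embryos of 0 to 24 h, pooled in 1 library with no second condition and no replicate. In this assay, scAIR, DNA in fixed nuclei is digested and re-ligated and each nucleus then gets its barcode in a 10x droplet, which allows transcripts and chromatin contacts to be traced to 1 nucleus. The labels give no strain, genotype or number of embryos. The matching chromatin library was not analysed here.

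The basement membrane is a thin sheet of extracellular matrix that underlies epithelia and wraps muscle, nerve cord, gut and fat body. Laminin, a trimer of an alpha, a beta and a gamma chain, binds cell surface receptors and starts the sheet, and collagen IV, a trimer that mixes the chains of Col4a1 and vkg, forms a covalent network that gives it strength. Nidogen (Ndg) and perlecan (trol) connect to these networks, SPARC binds collagen IV, papilin (Ppn) is a matrix proteoglycan related to ADAMTS proteases, and peroxidasin (Pxn) forms the bonds that join collagen IV trimers. In Drosophila embryos, migrating hemocytes are known as a main source of collagen IV, and many tissues make laminin.

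The 318 nuclei held 2233526 unique molecular identifiers (UMIs), a median of 2969 and a range of 279 to 123309 for each nucleus, and the deepest 32 nuclei held 48.5% of all UMIs. For comparisons at equal depth, 1000 UMIs were drawn from each of the 270 nuclei that had as many, which left out 48. Levels are CPM, the UMIs of a gene in 1000000 UMIs of the nuclei summed. UMIs are not divided by transcript length, so levels are compared between nuclei and not between genes. With 1 library no difference has a replicate check, nuclei are not replicates, and all intervals are 95% intervals of counting error only. The clustering gave 10 clusters, of which 6 could be named from marker genes. These were midgut-like, epidermis-like (clusters 2 and 3), neuron-like, salivary gland-like and somatic muscle-like nuclei. The name of cluster 3 is loose, because its epidermis markers were split. Of 12, 5 were at least 2-fold higher there and 5 at least 2-fold lower, where 3.48% of all genes were higher. Of 9 trachea markers 3 were higher in cluster 3 and 0 lower. In cluster 2, 6 of the 12 epidermis markers were at least 2-fold higher and 2 lower. Of 10 hemocyte markers measured, 2 were higher in cluster 2 and 0 lower. The share of all genes higher in cluster 2 is not given here.

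Together the 10 genes had 10613 UMIs, or 4752 CPM (interval 4662 to 4843), and 305 of the 318 nuclei held at least 1 of them. The 13 nuclei with none were shallow, with a median of 752 UMIs. Among the collagen IV genes, Col4a1 had 1921 UMIs in 232 nuclei and vkg 1040 UMIs in 186 nuclei. Among the laminin genes, LanA had 1751 UMIs in 239 nuclei, LanB1 1078 UMIs in 213 nuclei and LanB2 997 UMIs in 211 nuclei. The laminin genes were thus found in 66.4% to 75.2% of nuclei.

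The linkers and collagen partners were counted at similar depth. The perlecan gene trol had 1181 UMIs in 188 nuclei, the nidogen gene Ndg 701 UMIs in 129 nuclei, SPARC 820 UMIs in 191 nuclei and the papilin gene Ppn 1086 UMIs in 171 nuclei. Pxn, the peroxidasin gene, had 38 UMIs in 25 nuclei, which limits every statement on it.

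The genes differed in how far their UMIs were concentrated. The 34 deepest nuclei held 50% of all UMIs, and for the laminin genes that share was reached with the 29 (LanB1), 31 (LanA) and 32 (LanB2) richest nuclei. SPARC reached it with 27 nuclei, trol with 22, Col4a1 with 21 and vkg with 18. Ndg reached it with 11 nuclei and Ppn with 10. The richest nucleus held 157 Col4a1 and 78 vkg UMIs of its 18209, and this nucleus was not the deepest. For LanA, LanB1, LanB2, trol, Ndg, SPARC and Ppn the nucleus with the most UMIs was the deepest in the library, which held 133 of the 701 Ndg UMIs and 147 of the 1086 Ppn UMIs.

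The chains of the same trimer kept a nearly constant proportion from nucleus to nucleus. Col4a1 made up 64.9% of collagen IV UMIs (63.1% to 66.6%). In the 69 nuclei with at least 10 collagen IV UMIs its share had a median of 65.0%, a lowest value of 31.3% and a highest of 90.9%. The exact interval of 68 of these 69 nuclei held the pooled share, so nearly all of that range lay within counting error. For laminin, LanA made up 45.8%, LanB1 28.2% and LanB2 26.1% of UMIs. In the 95 nuclei with at least 10 laminin UMIs, the interval held the pooled share in 91 for LanA, in 92 for LanB1 and in 89 for LanB2.

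**Figure D1:**
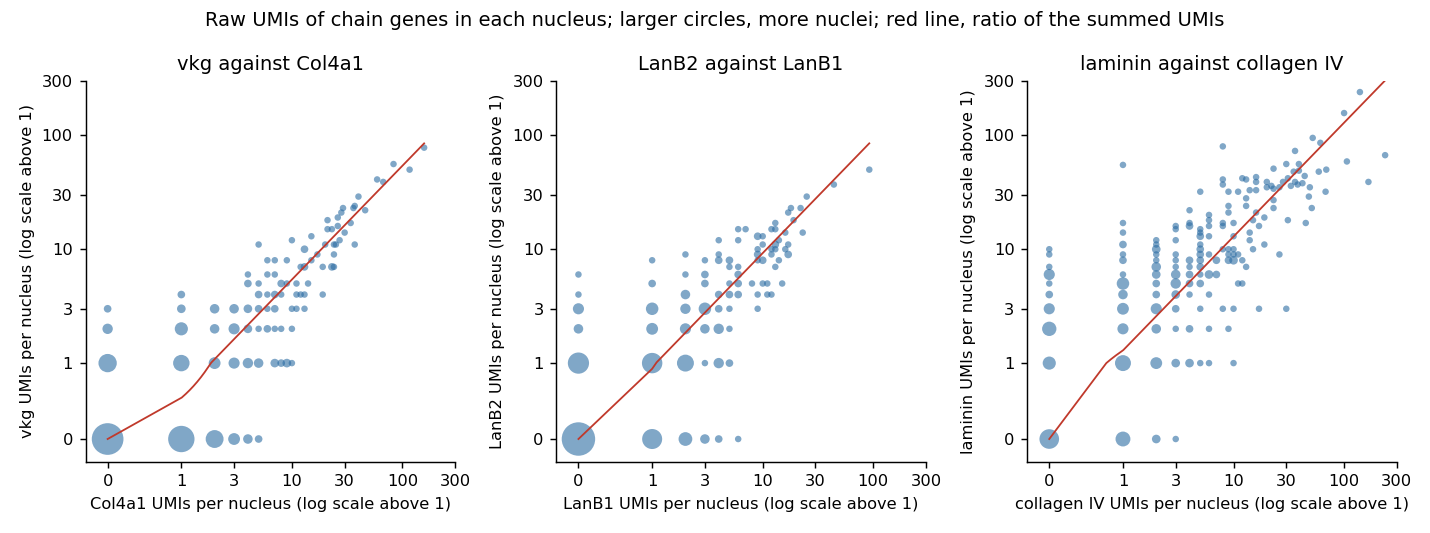
UMIs in each of the 318 nuclei for vkg against Col4a1, LanB2 against LanB1, and the sum of the 3 laminin genes against the sum of the 2 collagen IV genes, on axes that are logarithmic above 1. Circles grow with the number of nuclei at a point and the red line is the ratio of the summed UMIs. The chain pairs lie close to their line, and laminin against collagen IV spreads more widely, with the 2 nuclei richest in collagen IV far below it.

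Mixes across trimers varied far more. The collagen IV genes made up 43.6% of the UMIs of collagen IV plus laminin (42.4% to 44.8%). Of the 143 nuclei with at least 10 such UMIs, 100 had an interval that held this share, 19 lay above it and 24 below it. In the 55 nuclei with at least 10 UMIs of each trimer, 35 held it. For Ppn against collagen IV 62 of 85 nuclei held the pooled share, and for trol against Ndg 30 of 47. SPARC against collagen IV stood between, with 80 of 89.

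A single measure over all nuclei also put the pairs within a trimer lowest. The overdispersion rho of a beta-binomial model, estimated by moments, is 0 when the mix of a pair of genes varies between nuclei only as counting does, and 1 when each nucleus holds only 1 of them. Of the 45 pairs of the 10 genes, Col4a1 with vkg had the lowest rho, 0.0068 over 258 nuclei. The laminin pairs came next, at 0.0092 for LanB1 with LanB2, 0.010 for LanA with LanB1 and 0.022 for LanA with LanB2. These 4 pairs ranged from 0.0043 to 0.024 without the deepest nucleus.

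The other pairs began at 0.049, for vkg with SPARC. The 6 pairs of a collagen IV gene with a laminin gene had a rho of 0.107 to 0.135, Ppn had 0.154 with Col4a1 and 0.175 with vkg, and the 8 pairs of Ndg with a gene other than Pxn had 0.206 to 0.391. This measure was chosen after the data had been seen, and it has no interval. RNA that leaks between nuclei would also share 1 proportion of chains, and its part in these values was not tested.

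**Figure D2:**
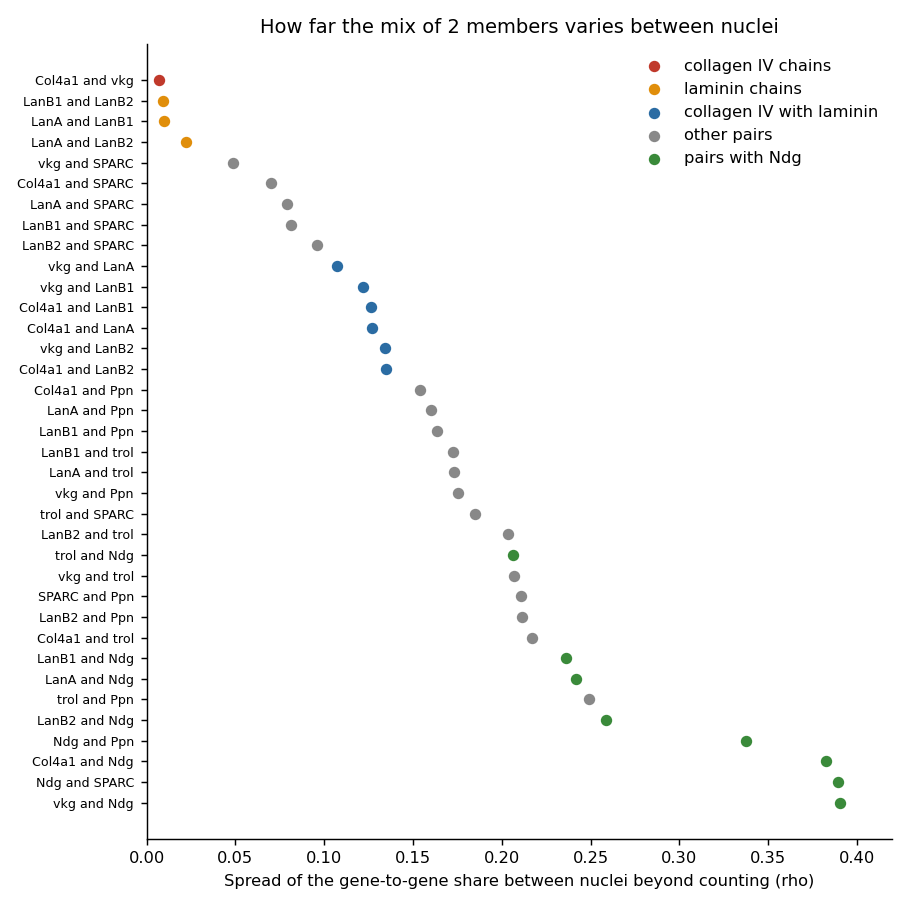
Overdispersion rho of the mix of 2 genes between nuclei, for the 36 pairs of the members other than Pxn, in order. The 4 pairs within a trimer lie lowest, at 0.0068 to 0.022, the 6 pairs of collagen IV with laminin at 0.107 to 0.135, and pairs with Ndg at 0.206 to 0.391.

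Set against the other 732 genes with at least 500 UMIs, the chains picked each other out. For Col4a1 the gene with the lowest rho was vkg, and for vkg it was Col4a1, where the median gene had 0.212 with Col4a1 and 0.226 with vkg. The second for both was Glt, the gene of the matrix protein glutactin, at 0.025 with Col4a1 and 0.036 with vkg, and the third was SPARC. For LanA the lowest was LanB1 and the third LanB2, for LanB1 the lowest were LanB2 and LanA, and for LanB2 the lowest was LanB1 and the third LanA. The ribosomal protein gene RpL41 held the remaining place in each. The laminin genes stood closer to genes at large, with a median rho of 0.091 for LanA, 0.109 for LanB1 and 0.108 for LanB2.

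Ndg, trol and Ppn had no member of the 10 among their 3 nearest genes. The nearest of trol and Ppn was again RpL41, at 0.068 and 0.084. The nearest of Ndg was Act57B, a muscle actin, at 0.072, with RpL41 next at 0.075, and Col4a1 ranked 591 and vkg 613 of 732 for it. Ppn had Col4a1 at rank 18 and LanA at rank 30. For SPARC the nearest was Glt at 0.034, with RpL41 next at 0.035, vkg at rank 3 and Col4a1 at rank 9. RpL41 was thus among the 3 nearest genes of 7 of the 9 members other than Pxn, all but the collagen IV genes, so a low rho with it was general. In the RefSeq gene table, Col4a1 and vkg are neighbours with 0 genes between them, and the pair is known to be transcribed in opposite directions.

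Summed over nuclei, there were 0.774 collagen IV UMIs for each laminin UMI (0.737 to 0.812). By its intervals, the ratio differed more between clusters than the chain shares. It was highest in the epidermis-like clusters, at 1.28 (1.13 to 1.45) in cluster 3 and 0.981 (0.881 to 1.09) in cluster 2. It was lowest in the unnamed cluster 9, at 0.372 (0.284 to 0.482), which held fat body markers together with fkh and sisA, and in somatic muscle-like nuclei, at 0.503 (0.445 to 0.569). Neuron-like nuclei were at 0.729 (0.621 to 0.855). Of the 10 clusters, 2 had an interval above the pooled ratio, 4 below it and 4 held it. The 2 above were clusters 3 and 2, and single nuclei weighed on both. In cluster 3, 1 nucleus held 235 of the 564 collagen IV UMIs and 67 of the 441 laminin UMIs. In cluster 2, 1 nucleus held 166 of the 678 and 39 of the 691. The ratios without these nuclei are not given here. The Col4a1 share of collagen IV was 60% to 71.1% by cluster, and all 10 intervals held the pooled 64.9%. All 10 also held the pooled share for LanA and for LanB2. For LanB1 9 of 10 did, and the exception was the somatic muscle-like cluster 7, where LanB1 made up 32.5% of laminin UMIs (29.2% to 35.9%), against 28.2% over all nuclei. The deepest nucleus held 92 of that cluster's 254 LanB1 UMIs and 240 of its 781 laminin UMIs. The share without it is not given here, so the exception may rest on 1 nucleus.

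**Figure D3:**
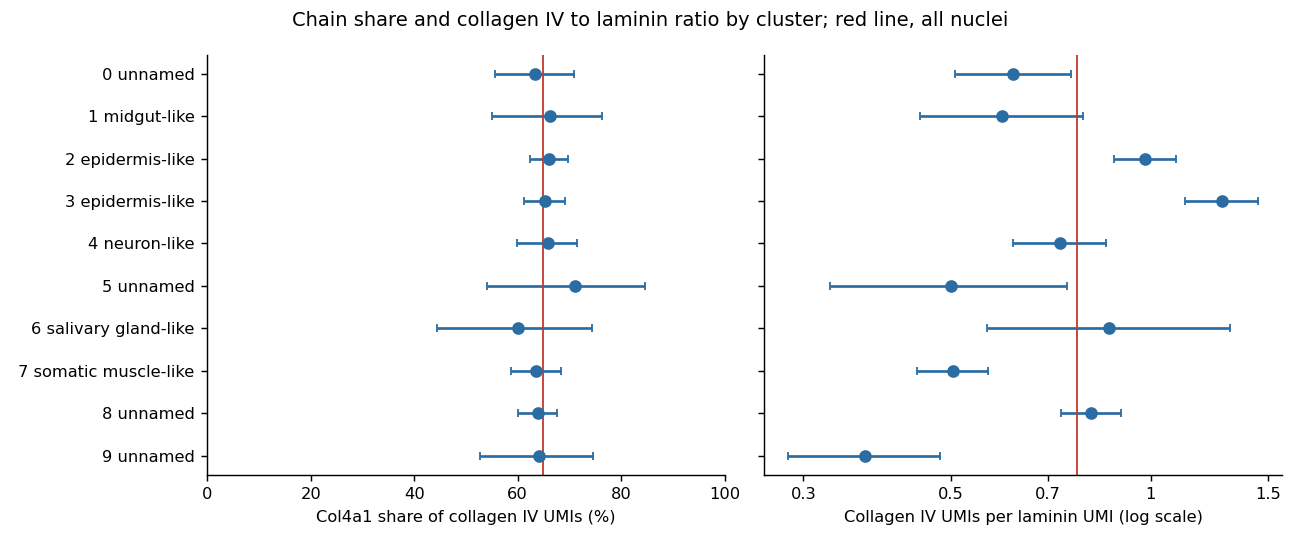
Share of Col4a1 in collagen IV UMIs (left, percent) and collagen IV UMIs for each laminin UMI (right, log axis) in the 10 clusters, with 95% counting intervals and the value over all nuclei as a red line. The share stays within 60% to 71.1%, and the ratio spans 0.372 in cluster 9 to 1.28 in cluster 3. In cluster 3, 1 nucleus held 235 of the 564 collagen IV UMIs.

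Detection at equal depth did not separate collagen IV nuclei from laminin nuclei. Among 1000 UMIs, 150 of the 270 nuclei held a collagen IV UMI and 202 a laminin UMI. Both were found in 116 nuclei, collagen IV without laminin in 34, laminin without collagen IV in 86 and neither in 34. Independence gives 112.2 nuclei with both, and the ratio was 1.03 (0.890 to 1.18). The interval of such a ratio takes the number from independence as fixed. It does not use that the nuclei with each gene are given, so it is wide. A pair whose interval holds 1 is therefore not shown to be independent. Col4a1 and vkg were found together in 45 nuclei where independence gives 33.8, a ratio of 1.33 (0.992 to 1.73). The pairs of these genes with laminin genes overlapped that interval. With Col4a1 the ratios were 0.999 for LanA, 1.12 for LanB1 and 1.21 for LanB2, and with vkg they were 0.956, 1.03 and 1.18.

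Pairs within the 10 genes lay slightly above independence. Of the 36 pairs without Pxn the median ratio was 1.10. By these wide intervals only vkg with SPARC lay above 1, found together in 37 nuclei where independence gives 26.3, a ratio of 1.41 (1.01 to 1.89). None of the 8 members measured with Col4a1 reached 1.5 times independence, against 1% of 2294 genes. None of 8 did so with vkg, against 3.05% of genes. At such shares a count of 0 of 8 says little. The median ratio of the 8 members was 1.19 with Col4a1 and 1.10 with vkg, against 1.01 and 0.989 for the 2294 genes. Col4a1 with vkg, at 1.33, lay above the 95th percentile of genes with Col4a1 (1.32) and below that with vkg (1.43). For vkg with Ndg the ratio was 0.666 (0.322 to 1.21), an interval that shows neither co-occurrence nor avoidance of this pair.

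Low-level detection was broad, also in neuron-like nuclei. In the 44 neuron-like nuclei at equal depth, collagen IV was found in 47.7% and laminin in 61.4%. Over all clusters collagen IV was found in 43.8% to 64.7% of nuclei and laminin in 50% to 88.2%. A UMI or 2 in a nucleus was therefore not taken as expression, and the source of such UMIs was not tested. The neuron-like cluster also held 2 nuclei with over 5 collagen IV UMIs in 1000. In 1 of them 39 of 3235 UMIs were of collagen IV and 56 of laminin. The median depth before thinning was 1759 UMIs in neuron-like nuclei and 2969 in all. The nuclei called collagen IV-positive below, with 2 or more UMIs among 1000, and laminin-positive, with 1 or more, are thus groups by UMIs found at equal depth, and they include nuclei at that level.

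Ndg codes for the linker nidogen. Of the 9 members other than Pxn, it had the largest ratio between its highest and lowest cluster, 17.97, with 4 UMIs in the lowest. In the 29 somatic muscle-like nuclei with at least 1000 UMIs it ranged from 0 to 4.78 UMIs in 1000 with a median of 1.08, against 0 to 2.21 with a median of 0 in the 241 other nuclei. The ranges overlapped, but 5 of those 241 nuclei lay above the muscle-like median. Its level was 1074 CPM (975 to 1180) in somatic muscle-like nuclei and 146 CPM in all others, a ratio of 7.36 (6.30 to 8.60). These 31 nuclei held 61.9% of all Ndg UMIs. The other 9 clusters lay between 59.8 CPM (16.3 to 153) in midgut-like nuclei and 251 CPM in cluster 9. Some visceral muscle or heart markers were also higher in the muscle-like cluster. Of 6 measured, 2 were at least 2-fold higher, Hand and bin, and 1 was lower, against 4.4% and 7.94% of genes. Hand had 86.6 CPM there and 19.1 CPM in all others.

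At equal depth Ndg was found in 69.0% of somatic muscle-like nuclei, against 13.3% of all others and 11.4% of neuron-like nuclei. The deepest nucleus of the library is muscle-like and held 133 of the cluster's 434 Ndg UMIs. Without it the ratio was 7.35, and it ranged from 7.198 to 10.2 over 8 alternatives. Of the 10 genes, 2 were at least 2-fold higher in this cluster, with 10 CPM added on both sides, against 4.4% of 7983 genes.

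The second was trol, which codes for perlecan, a heparan sulfate proteoglycan. It had 0 to 3.39 UMIs in 1000 with a median of 0.686 in the 29 somatic muscle-like nuclei, against 0 to 11.6 with a median of 0.254 in the 241 others. The groups overlapped widely, and 25.7% of the others lay above the muscle-like median. Its level was 990 CPM in somatic muscle-like nuclei and 427 CPM in all others, a ratio of 2.32 (2.05 to 2.62) that was 1.503 when every nucleus weighed the same. In midgut-like nuclei trol had 971 CPM, against 515 CPM in all others, a ratio of 1.89 (1.45 to 2.42). There 27.7% of its UMIs came from 1 nucleus, and the ratio was 1.40 without it and 0.960 at a coarser clustering.

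The laminin genes differed little between muscle-like and other nuclei, and the collagen IV genes were lower in them. LanB1, the beta chain, had 629 CPM in somatic muscle-like nuclei and 450 CPM in all others, a ratio of 1.40 (1.21 to 1.61), with 36.2% of the cluster's LanB1 UMIs in 1 nucleus. LanA and LanB2 had ratios of 1.08 (0.952 to 1.21) and 1.07 (0.911 to 1.26). Col4a1 had 619 CPM in somatic muscle-like nuclei and 913 CPM in all others, a ratio of 0.677 (0.591 to 0.774), and vkg a ratio of 0.722 (0.601 to 0.862). Ppn had a ratio of 1.86, with 46.5% of the cluster's UMIs in 1 nucleus, 1.43 without that nucleus and 1.03 without the 32 nuclei of highest doublet score.

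Some genes that hold cells to the matrix were also higher in these nuclei. Of 14 receptor and adhesion genes measured, 4 were at least 2-fold higher in somatic muscle-like nuclei and 0 lower. They were Pax, the gene of the adhesion adaptor paxillin, with 468 CPM in muscle-like nuclei and 90.2 CPM in others, the integrin genes if (354 and 85.3 CPM) and mys (502 and 231 CPM), and Vinc, the gene of vinculin (183 and 62.9 CPM). Of 15 other matrix genes 3 were higher and 3 lower, where 4.4% of all genes were higher and 7.94% lower.

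SPARC, which codes for a collagen-binding glycoprotein, was highest in the unnamed cluster 5. Of 10 hemocyte markers measured there, 3 were at least 2-fold higher and 3 lower, where 8.36% of all genes were higher. Of 7 fat body markers, 3 were also higher and 3 lower. The 13 nuclei of cluster 5 held 0 to 3.15 SPARC UMIs in 1000 with a median of 1.86, against 0 to 2.57 with a median of 0.220 in the 257 other nuclei. The ranges overlapped, but 4 of the 257 lay above the cluster's median. The level was 1474 CPM (1167 to 1837) in cluster 5 and 340 CPM in all others, a ratio of 4.34 (3.39 to 5.47), and 1.95 at a coarser clustering that joined these nuclei to others. At equal depth SPARC was found in 69.2% of cluster 5, 31.9% of all others and 25% of neuron-like nuclei.

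The collagen IV genes did not share that pattern. Col4a1 had 504 CPM in cluster 5 and 869 CPM in all others, a ratio of 0.580 (0.381 to 0.846), and vkg a ratio of 0.435 (0.216 to 0.781). SPARC was the 1 member of 10 at least 2-fold higher there, against 8.36% of genes. The lipoprotein gene apolpp was at 46621 CPM in cluster 5, and the hemocyte gene Hml had 0 of its 18 UMIs in it. Fas3, a marker in the visceral muscle and hindgut lists, was at 6903 CPM there and 922 CPM in all others.

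Cluster 9 had the lowest levels of several members. Col4a1 had 363 CPM in cluster 9 and 894 CPM in all others, vkg 202 and 484 CPM, trol 119 and 557 CPM and Ppn 105 and 512 CPM. These 4 of 10 genes were at least 2-fold lower, against 26.1% of genes, and their ratios were 0.406, 0.418, 0.213 and 0.204. The intervals of the laminin genes held 1, with LanA at 691 CPM in cluster 9 and 790.3 CPM in all others, a ratio of 0.874 (0.706 to 1.07).

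**Figure D4:**
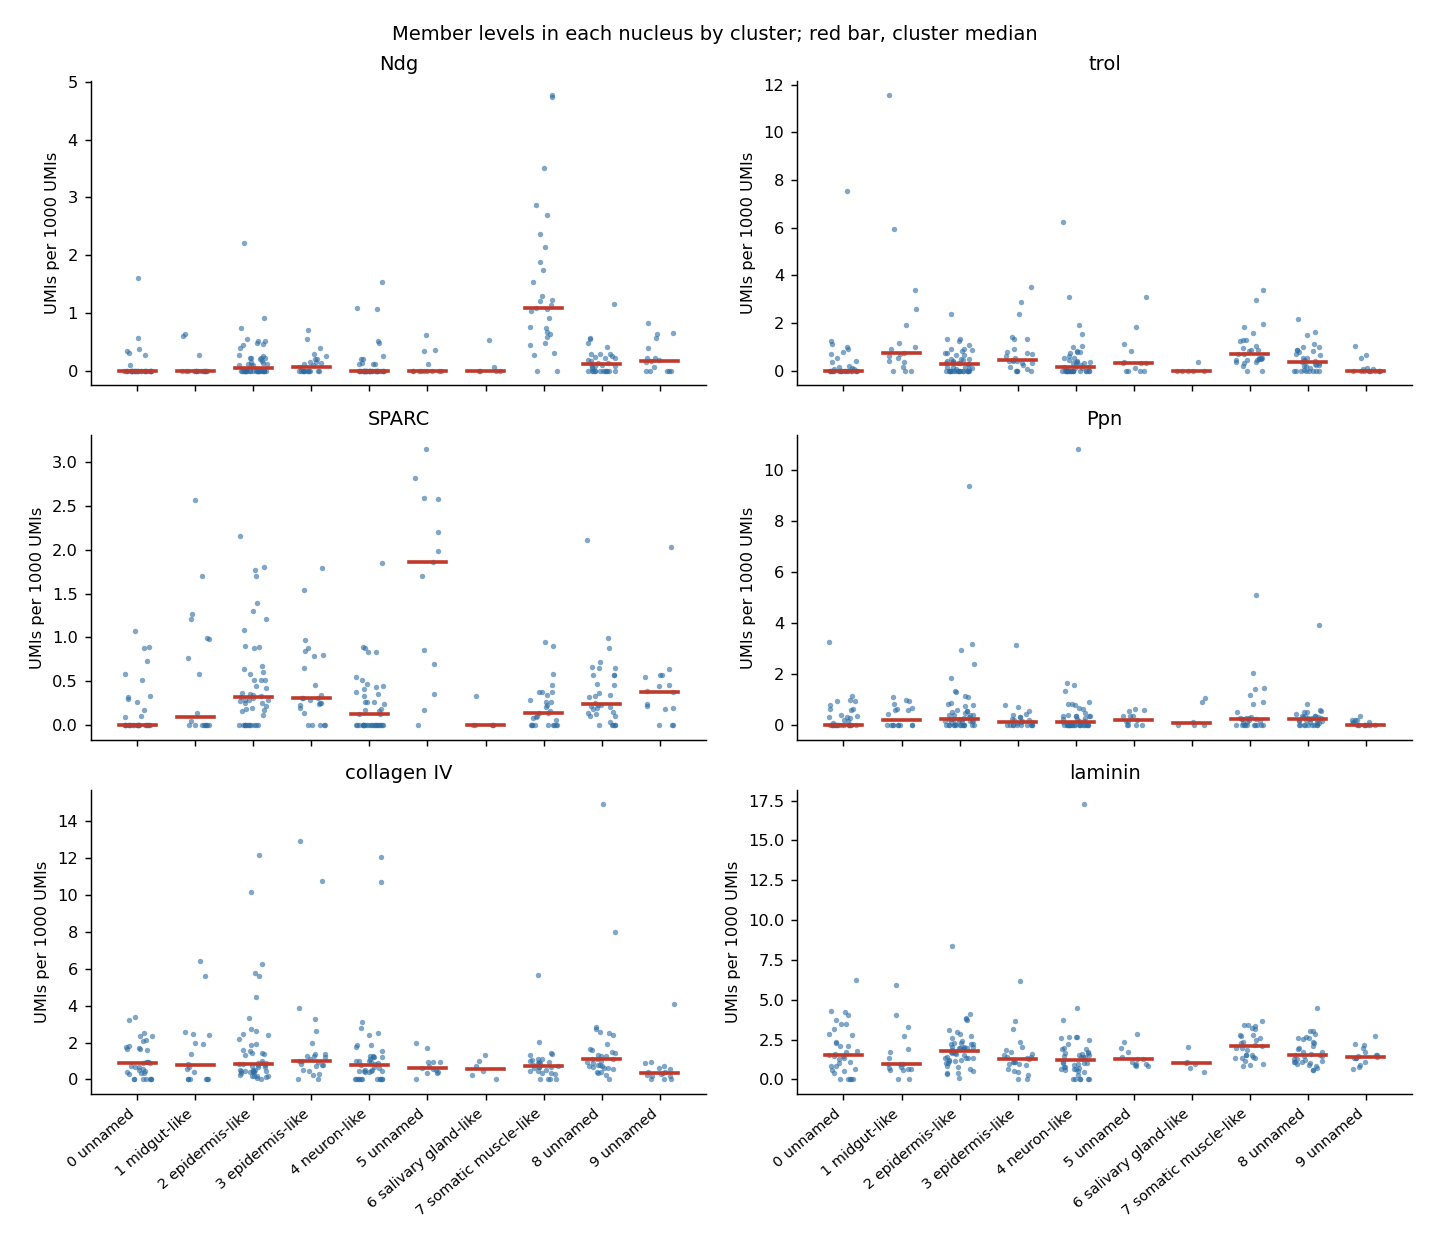
UMIs in 1000 UMIs of each of the 270 nuclei with at least 1000 UMIs, by cluster, for Ndg, trol, SPARC, Ppn, the sum of the collagen IV genes and the sum of the laminin genes, with the cluster median as a red bar. Ndg stands highest in cluster 7 at a median of 1.08, SPARC in cluster 5 at 1.86, and high collagen IV values lie in single nuclei of several clusters.

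The cluster with the highest collagen IV level was cluster 3, loosely named epidermis-like, at 1996 CPM (1835 to 2168). Cluster 2 followed at 1797 CPM (1664 to 1938), and the 2 intervals overlap. None of the 10 genes was at least 2-fold higher in cluster 3, against 3.48% of genes. High values were confined to few nuclei in either cluster. In cluster 3 the lowest, median and highest collagen IV values were 0, 1.003 and 12.9 UMIs in 1000, and the nucleus at 12.9 alone held 157 of the cluster's 368 Col4a1 UMIs.

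High collagen IV values lay in single nuclei of several clusters. Over the 270 nuclei it had a median of 0.811 UMIs in 1000, quartiles of 0.401 and 1.49 and a maximum of 14.95. A limit of 5 in 1000, set after the values were seen, took 14 nuclei that held 4.07% of all UMIs, 28.4% of collagen IV UMIs and 9.51% of laminin UMIs. They held 1120 to 18209 UMIs each and lay in 6 clusters: 5 in cluster 2, 2 each in clusters 1, 3, 4 and 8, and 1 in cluster 7. The nucleus just over the limit had 5.63 UMIs in 1000 and the one just under it 4.48. Laminin exceeded 5 in 1000 in 5 nuclei, of which 2 also exceeded it for collagen IV.

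Summed over those 14 nuclei, most other members were high as well. Ppn had 2869 CPM in the 14 nuclei and 387 CPM in the 256 others, a ratio of 7.41 (6.42 to 8.52), with UMIs in 11 of the 14. Single nuclei held 57, 52, 43, 39 and 35 of the 261 Ppn UMIs, and the rest of the 14 held 0 to 13 each. The nucleus with 166 collagen IV UMIs held 8. The Ppn ratio thus rests mainly on a few nuclei and is not shown to be shared by the 14. SPARC had 1594 CPM in the 14 and 313 CPM in the others, a ratio of 5.09 (4.22 to 6.10), with UMIs in all 14. Pxn had 11 and 25 UMIs, a ratio of 10.2 (4.54 to 21.5).

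The laminin genes and trol moved less. The ratios were 2.60 for LanA, 2.67 for LanB1, 2.07 for LanB2 and 2.77 for trol. Ndg had 18 and 675 UMIs, a ratio of 0.619 (0.365 to 0.986), with UMIs in 4 of the 14 nuclei. Of the 8 members that did not choose the nuclei, 7 were at least 2-fold higher, against 4.49% of 7947 genes. Of the matrix genes outside the 10, Glt had a ratio of 6.45, fon, a gene known from hemolymph clotting, 5.61, prc, the gene of the collagen-like pericardin, 4.64, and Tig, the gene of the integrin ligand tiggrin, 4.34.

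The sum of the hemocyte markers was also higher in the 14 nuclei, but not every marker was. The 16 markers summed to 1550 CPM in the 14 nuclei and 970.1 CPM in the others, a ratio of 1.60 (1.34 to 1.90), with UMIs of 12 markers in 13 of the 14 nuclei. A single nucleus held 30 of these 141 UMIs, 15 of them of PPO2. Of the genes of crystal cells, PPO1 had 15 UMIs, all in 1 nucleus, at a ratio of 15.1 (7.34 to 30.3), and PPO2 16 UMIs in 2 nuclei at 8.84 (4.64 to 16.1). Among receptor genes of phagocytes and hemocytes, Sr-CI had 7 UMIs at a ratio of 9.56 (3.35 to 24.2), Pvr 24 UMIs at 2.57 (1.61 to 3.92) and NimC4 19 UMIs in 5 nuclei at 2.25 (1.33 to 3.61). The intervals of crq, with 12 UMIs in 7 nuclei at 1.45 (0.737 to 2.59), and of Hml, with 2 UMIs in 1 nucleus at 2.90 (0.324 to 12.3), held 1. Below 1 lay zfh1, with 28 UMIs at 0.799 (0.528 to 1.16), drpr, with 9 at 0.667 (0.302 to 1.28), and ush, with 5 at 0.763 (0.244 to 1.82). Their intervals held 1, as did those of gcm with 3 UMIs and NimC1 with 1. He, eater, lz and gcm2 had 0 UMIs in the 14 nuclei. The fat body gene apolpp was lower, at 2748 CPM in the 14 and 4980 CPM in the others. The part of other cell types in these levels was not tested.

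The same members led when nuclei were chosen at equal depth. Both choices used the collagen IV UMIs of the same nuclei, so this is not a separate check. The overlap of the groups is not given here. The 73 nuclei with at least 2 collagen IV UMIs among 1000 were set against the 197 others. Ppn had 897 CPM in collagen IV-positive nuclei and 320 CPM in the others, a ratio of 2.81 (2.49 to 3.17), and SPARC 576 and 278 CPM, a ratio of 2.07 (1.796 to 2.38). Pxn had 20 UMIs in collagen IV-positive nuclei and 16 in the others, a ratio of 2.99 (1.47 to 6.16). These 3 of 8 members were at least 2-fold higher, against 1.06% of 7947 genes, and 0 were 2-fold lower, against 1.81%.

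The remaining members lay closer to 1. The ratios were 1.73 (1.54 to 1.95) for trol, 1.65 (1.46 to 1.87) for LanB1, 1.36 (1.229 to 1.499) for LanA and 1.36 (1.19 to 1.55) for LanB2. Ndg had 383 CPM in collagen IV-positive nuclei and 286 CPM in the others, a ratio of 1.34 (1.14 to 1.57) that turned to 0.770 without the deepest nucleus. That nucleus held 19.0% of the group's UMIs. The median depth was 3235 UMIs in collagen IV-positive nuclei and 3903 in the others.

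**Figure D5:**
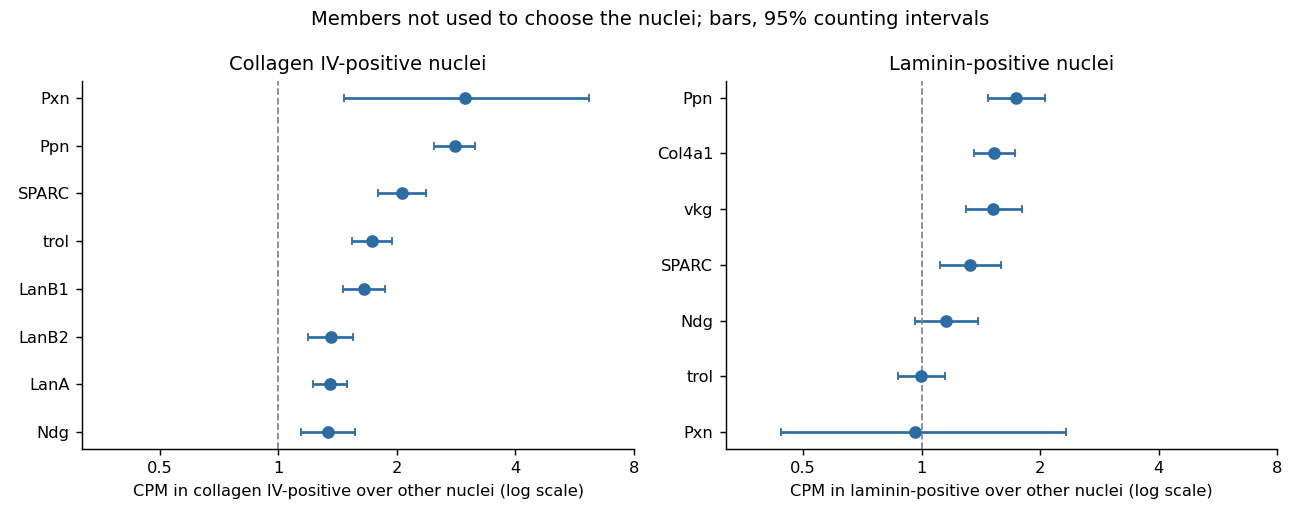
Ratio of CPM, on a log axis with 95% counting intervals, in collagen IV-positive over other nuclei (left, 73 and 197 nuclei) and in laminin-positive over other nuclei (right, 202 and 68 nuclei), for the members that did not choose the nuclei. Pxn, Ppn and SPARC exceed 2 on the left, and the highest on the right is Ppn at 1.74.

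The 8 members had a median log2 fold of 0.74 in collagen IV-positive over other nuclei, other matrix genes 0.30, collagen modification and secretion genes 0.23 and receptor genes 0.16, against -0.06 for all genes. Of 15 other matrix genes, 2 were at least 2-fold higher, Glt with 486 CPM in collagen IV-positive nuclei and 173 CPM in the others, and fon with 292 and 122 CPM. The lowest was frac, the gene of a fibrillin-like matrix protein, at 38.5 and 88.3 CPM. Of 14 collagen modification and secretion genes 0 passed 2-fold in either direction, and Plod, whose enzyme hydroxylates collagen lysines, had 237 and 142 CPM, a ratio of 1.67 (1.35 to 2.06). Of 14 receptor genes 0 passed. Of 7 remodelling genes 1 was higher, the protease gene AdamTS-A at a ratio of 4.83 (3.37 to 7.003), and over 6 alternatives it was 1.82 to 5.07.

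Marker sums of other cell types stood as follows. The 16 hemocyte markers had 993 CPM in collagen IV-positive nuclei and 995 CPM in the others, a ratio of 0.998 (0.909 to 1.09). Of 10 measured, 2 were at least 2-fold higher and 0 lower, against 1.06% and 1.81% of genes. PPO2 had a ratio of 3.64, PPO1 of 3.28, Hml 15 and 3 UMIs, and He 0 in both. Single nuclei weighed on the first 2, with 15 of all 38 PPO1 UMIs in 1 nucleus and 15 of all 59 PPO2 UMIs in 1 nucleus. The fat body markers had 3458 and 6204 CPM. The salivary gland markers had 19516 and 2604 CPM, and 1830 and 1843 CPM without the salivary gland-like nuclei, where the count of members stayed at 3.

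Laminin-positive nuclei showed no such set. In the 202 nuclei with a laminin UMI among 1000 against the 68 others, 0 of the 7 remaining members reached 2-fold, against 1.36% of 7946 genes. Ppn had 546 CPM in laminin-positive nuclei and 314 CPM in the others, a ratio of 1.74 (1.47 to 2.06). Col4a1 had 938 and 613 CPM, a ratio of 1.53 (1.36 to 1.73), and vkg 509 and 335 CPM, a ratio of 1.52 (1.29 to 1.798). The ratio for trol was 0.999 (0.873 to 1.15) and for Ndg 1.15 (0.960 to 1.39). Neuron markers were lower in laminin-positive nuclei, at 3579 CPM against 6673 CPM, and 7 of 14 were at least 2-fold lower, against 2.48% of genes.

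Across the 270 nuclei, log-scaled levels of 5661 genes were correlated with summed collagen IV as a description, in sparse counts where the median gene had r = 0.03. The genes with the highest r were Glt (0.39), SPARC (0.36), Ppn (0.34), Tig (0.32), firl (0.31), fon (0.29), CG16704 (0.29), IM33 (0.29), CG34166 (0.28) and LanB2 (0.28). SPARC, Ppn and LanB2, all members, were thus among the 10 highest. LanB1 ranked 18, LanA 28, trol 33 and Ndg 4399, the last at r = -0.02. These points share 1 library, and the r of these 10 genes with log depth was 0.04 to 0.27.

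For summed laminin, the highest included Tig (0.38), RpS28b (0.33), Plod (0.32), RpL23 (0.31), vkg (0.29), RpL36 (0.29), Col4a1 (0.29), RpS27 (0.28) and betaTub60D (0.28). Both collagen IV genes were among them, beside ribosomal protein genes. Ppn ranked 13, SPARC 26, Ndg 259 and trol 605 of 5660.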

How the data were processed

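The deposited table gives raw counts of UMIs for each gene in each nucleus, and the authors did not normalize them. That they are UMIs follows from the platform in the labels. Per the submitters' processing notes, the build was dm3. No coordinates were used. For the aligner, counting program, strand setting and barcode filter, details were not given in the sources used here. All 318 nuclei of the 1 RNA library were kept.

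The 10 genes and all lists were chosen with earlier results of these data known. Of 219 list entries 210 matched exactly, 4 by a synonym and 5 not. Clusters came from scanpy 1.11.5 (igraph 0.11.9, numpy 2.4.6, scipy 1.17.1, pandas 2.3.3, python 3.11.15). Nuclei were scaled to 10000 UMIs and logged, with 2000 variable genes without the members and pathway lists, 20 components, 10 neighbours and Leiden resolution 1 with seed 0. A cluster took the name of the marker list with the most members at least 2-fold higher, of at least 3. Names were withheld from cluster 0 (oocyte genes) and cluster 9. Scrublet called 7 nuclei, which were kept.

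Groups were compared by summed UMIs. Calls used CPM + 10, at least 2-fold and genes with at least 20 UMIs, and printed ratios have no addition. Intervals are Clopper-Pearson, exact Poisson or conditional binomial. There is no p-value. Thinning used 1 seed. Correlations used genes with at least 50 UMIs in at least 20 nuclei. The steps were tested on simulated counts.

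Named genes are the 10 members, up to 4 of each list with at least 20 UMIs and the highest or lowest fold, and the 10 genes with the highest r to collagen IV and to laminin, of which 1 is not reported here. Genes nearest by rho, and Hml, He, NimC4, the other hemocyte markers, apolpp, fkh, sisA, prc and Tig, were named after their values were seen.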

Additional observations from a re-analysis of the deposited data

How the results depend on the processing

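The collagen IV to laminin ratio (0.774) was 0.787 without the deepest nucleus, 0.801 without the deepest 32 nuclei and 0.775 with every nucleus weighed the same. Their co-detection (1.03) was 1.01 to 1.07 over 5 alternatives. The summed level of the 10 genes (4752 CPM) was 4635 without the deepest nucleus, 5044 without the deepest 32 nuclei and 4892 with equal weights. The 3 members higher in collagen IV-positive nuclei became 1 with CPM + 50, and 2 to 4 otherwise. The count of 0 in laminin-positive nuclei became 2 without the deepest 32 nuclei and 1 with equal weights, and the count of 0 members in the cluster highest in collagen IV became 1 at resolution 1.5. The cause was not tested.

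Ndg in collagen IV-positive nuclei turned from 1.34 to 0.770 without the deepest nucleus, 0.864 without the deepest 32 nuclei, 0.951 with equal weights and 0.468 at 4 or more UMIs. Its direction is thus not settled. In the same comparison frac turned to 1.29 at 1 or more UMIs. In midgut-like nuclei trol turned to 0.960 at resolution 0.5. Without the salivary gland-like nuclei, an alternative chosen after seeing the data, the count of 3 stayed. Ppn in collagen IV-positive nuclei ranged from 2.08 to 5.05 and SPARC from 1.805 to 3.695.

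No paired analysis was possible because there is 1 RNA library and no second group. At a median of 2969 UMIs, most members had 0 to 2 UMIs in a nucleus, so the absence of a gene from a nucleus was not detectable, and Pxn with 38 UMIs bears no comparison between clusters.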
